A study of Homo sapiens with 4 samples.

Results

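The YAP and TEAD genes described here are 10 rows of the deposited expression table, of 20289 in all, taken by gene symbol. They comprise 6 genes whose transcription YAP and TEAD are known to drive (CCN1, CCN2, ANKRD1, AMOTL2, AXL and LATS2, called targets) and 4 genes for the factors themselves (YAP1, WWTR1, TEAD1 and TEAD4). All 10 had at least 20 counts in a library, as 11843 genes of the table did. RNA came from SUM159-R, a paclitaxel-resistant derivative of the human triple-negative breast cancer line SUM159, whose genotype the labels give as WT and which was maintained in 150 nM paclitaxel. Cells were exposed for 24 h to DMSO, to the protein kinase C inhibitor enzastaurin at 2.5 µM, to paclitaxel, which stabilises microtubules, at 500 nM, or to both drugs together, called the combination here. Each condition has 1 library, so no difference between conditions could be set against the spread between cultures, and the 95% intervals in brackets cover counting error alone. The sources used here do not say whether the maintenance paclitaxel was withdrawn before treatment or whether the resistant line is a single clone.

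Library totals ran from 18236549 counts in the combination to 24699965 in paclitaxel. Mitochondrial genes took 6.70% of the combination library and 7.06% to 7.12% of the others. The hormone receptor genes ESR1 and PGR had at most 3 counts in a library, while VIM, which encodes the intermediate filament vimentin, was at 3684 to 4694 CPM (counts scaled to a common library size with TMM factors). ERBB2, the HER2 gene, was at 65.4 to 91.1 CPM. The mesenchymal markers CD44, FN1, ZEB1 and SNAI2 were all present. Of 6 luminal markers KRT8 and KRT18 were at 259 to 346 CPM, GATA3 had 48 to 61 counts and CDH1, EPCAM and KRT19 at most 14. Of 5 basal markers EGFR and TP63 were present and the keratin genes KRT5, KRT14 and KRT17 had at most 9 counts. Markers of blood cells (PTPRC) and endothelium (PECAM1, CDH5) had at most 54 counts.

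YAP1 and WWTR1 encode YAP and TAZ, coactivators that do not bind DNA themselves and reach their target genes through the TEAD proteins. The Hippo kinases MST and LATS restrain them: LATS phosphorylates YAP and TAZ, which are then held in the cytoplasm by YWHA adaptor proteins or degraded. Tension in the actin cytoskeleton counters that restraint, and CCN1, CCN2 and ANKRD1 are the mRNAs most often used to read the pathway. AMOTL2 and LATS2 are at once targets and inhibitors, and so close feedback loops. Only mRNA was measured, so the phosphorylation, location and protein level of YAP and TAZ are outside these values.

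Targets were lower in the combination library, while the factors' levels there in CPM were within 0.05 of DMSO on the log2 scale. Summed over the 6 targets, the deposited FPKM (fragments scaled for transcript length and library size, hence a level per length) was 358 in DMSO, 318 in enzastaurin, 259 in paclitaxel and 110.2 in the combination. Summed over the 4 factors it was 134.6, 129.6, 141.9 and 128.1 in the same order. The targets together thus stood at 2.66 times the factors in DMSO, 2.46 times in enzastaurin, 1.82 times in paclitaxel and 0.86 times in the combination. Most of the target sum in DMSO is CCN1 (143.5) and AXL (114.1), so it says little about LATS2 (6.01) or ANKRD1 (1.06). In bulk RNA, fewer cells that express a gene and less RNA per cell cannot be told apart.

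**Figure D1:**
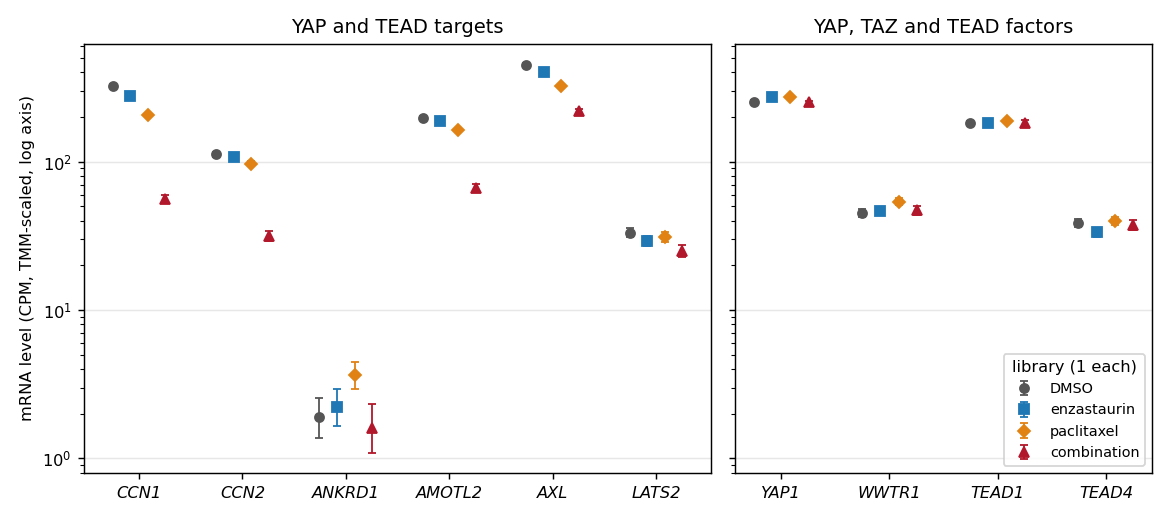
Level of each YAP and TEAD gene in the 4 libraries, in CPM on a log axis; points are single libraries and bars are 95% Poisson intervals for counting error. In the left panel the combination is the lowest point of each of the 6 targets, whereas in the right panel the libraries of each factor lie close together.

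CCN1, a secreted matricellular protein that binds integrins, had the highest level per length of the 10 genes in DMSO. It had 7371 counts in DMSO, 6138 in enzastaurin, 5147 in paclitaxel and 1010 in the combination, and these correspond to 326 CPM (319 to 334), 278 CPM (271 to 285), 207 CPM (202 to 213) and, lowest, 56.0 CPM (52.6 to 59.6). Each drug alone was lower than DMSO and no 2 of the 4 intervals overlap. The CCN1 level in the combination was 5.82-fold below DMSO, 4.96-fold below enzastaurin and 3.70-fold below paclitaxel. Against DMSO its log2 ratio was -0.23 (-0.28 to -0.18) for enzastaurin and -0.66 (-0.71 to -0.60) for paclitaxel. CCN1 (ENSG00000142871) lies at chr1:85580761-85583962 on the plus strand of hg38.

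CCN2, the connective tissue growth factor gene at chr6:131948176-131951373, differed little with either drug alone. In the same library order its counts were 2528, 2384, 2405 and 570 and its levels 111.9, 108.0, 96.8 and 31.6 CPM. The intervals of DMSO and enzastaurin overlap, and the combination (29.1 to 34.3 CPM) stands apart from all 3 others. In the combination CCN2 was 3.54-fold below DMSO and 3.06-fold below paclitaxel, against a log2 ratio of -0.21 (-0.29 to -0.13) in paclitaxel over DMSO and of -0.05 (-0.13 to 0.03) in enzastaurin over DMSO.

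AMOTL2, an angiomotin that binds YAP and holds it at junctions, resembled CCN2. It had 4481, 4132, 4073 and 1199 counts in the same order, or 198, 187, 164 and 66.5 CPM. The combination was again the low library, 2.98-fold below DMSO and 2.46-fold below paclitaxel. Both single drugs were close to DMSO on the log2 scale, at -0.08 (-0.15 to -0.02) for enzastaurin and -0.28 (-0.34 to -0.21) for paclitaxel. The gene lies at chr3:134355874-134375479.

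ANKRD1, which encodes a nuclear and sarcomeric ankyrin repeat protein, was the target with a higher level in paclitaxel than in DMSO, from low counts. It had 43 counts in DMSO, 49 in enzastaurin, 90 in paclitaxel and 29 in the combination. Paclitaxel was the high library, at 3.62 CPM (2.91 to 4.45), and the other 3 had overlapping intervals between 1.08 and 2.93 CPM. On the log2 scale ANKRD1 stood at 0.93 (0.39 to 1.49) with paclitaxel against DMSO, and at -1.17 (-1.83 to -0.55) with the combination against paclitaxel. Against DMSO the combination was at -0.24 (-0.97 to 0.47), so the low value over paclitaxel goes with a high level in the paclitaxel library. ANKRD1 lies at chr10:90912096-90921276.

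AXL, a TAM family receptor tyrosine kinase linked to drug resistance and invasion, was lower with paclitaxel, with or without enzastaurin. From DMSO to the combination its counts were 10178, 8937, 8103 and 3975, and its levels 451, 405, 326 and 221 CPM. None of these 4 AXL intervals overlap. Against DMSO the AXL log2 ratio was -0.47 (-0.51 to -0.42) for paclitaxel and -1.03 (-1.08 to -0.98) for the combination, which stood at -0.56 (-0.62 to -0.51) against paclitaxel. With the trend of the ratios in transcript length and GC content removed, the combination was at -0.92 against DMSO, under 2-fold. AXL lies at chr19:41219203-41261766.

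LATS2, the Hippo kinase that YAP induces as its own brake, differed least among the targets in combination over paclitaxel. It had 752, 643, 773 and 452 counts, or 33.3, 29.1, 31.1 and 25.1 CPM in the same order. The combination was lowest, with an interval (22.8 to 27.5 CPM) that overlaps that of enzastaurin (26.9 to 31.5 CPM). The combination stood at -0.41 (-0.58 to -0.24) against DMSO and at -0.31 (-0.48 to -0.14) against paclitaxel on the log2 scale. LATS2 lies at chr13:20973032-21061547.

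The size rule used here asks for a difference of at least 2-fold, a counting interval clear of no difference, and 20 or more counts in whichever library is higher. In combination over paclitaxel 4 of 6 targets (CCN1, CCN2, ANKRD1 and AMOTL2) passed it downward, against 4.17% of the 11843 genes. None of the 10 passed upward there, where 0.574% of genes did, and 4.75% of genes passed in either direction. In combination over DMSO 4 targets (CCN1, CCN2, AMOTL2 and AXL) were past the rule downward, against 5.53% of genes downward, 1.01% upward and 6.54% in either direction. In combination over enzastaurin 3 targets (CCN1, CCN2 and AMOTL2) were, against 5.44% downward, 0.929% upward and 6.37% in either direction. No factor passed in any comparison. These 3 comparisons share the combination library, so they are not separate evidence. The 10 genes were chosen with earlier results of these data known, so a higher share among them describes these genes and is not a test. In the single-drug comparisons no member passed. There 0.887% of genes passed with enzastaurin (0.448% lower, 0.439% higher) and 1.24% with paclitaxel (0.431% lower, 0.811% higher). The median log2 ratio of the 6 targets in combination over paclitaxel was -1.24 and that of the 4 factors -0.10, beside -0.02 over all 11843 genes.

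The combination was lower for CCN1, CCN2, ANKRD1 and AMOTL2 than the product of the single-drug ratios gives. This departure is the log2 of the combination level over the level expected if each drug multiplied the DMSO level by its own ratio. For CCN1 the product gives 176 CPM and 56.0 CPM was measured, a departure of -1.65 (-1.76 to -1.55). For CCN2 it gives 93.3 CPM against 31.6 CPM, a departure of -1.56 (-1.72 to -1.41). The departure was -1.39 (-2.24 to -0.55) for ANKRD1 and -1.22 (-1.33 to -1.10) for AMOTL2. AXL, at -0.41 (-0.48 to -0.34), was nearer to the product, and LATS2 was at -0.12 (-0.34 to 0.11). Among the factors it was -0.23 (-0.31 to -0.16) for YAP1, -0.24 (-0.41 to -0.06) for WWTR1, -0.03 (-0.12 to 0.06) for TEAD1 and 0.13 (-0.07 to 0.33) for TEAD4. A departure of at least 2-fold downward with an interval below 0 was thus seen in 4 of the 10 genes, against 4.61% of the 11813 genes for which it could be computed (0.787% upward). An interval below 0 of any size was seen in 7 of the 10, against 27.3%. Because the 10 genes were chosen with earlier results of these data known, these shares are descriptive only. With 1 library in each cell of the design, no test of this interaction was possible.

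**Figure D2:**
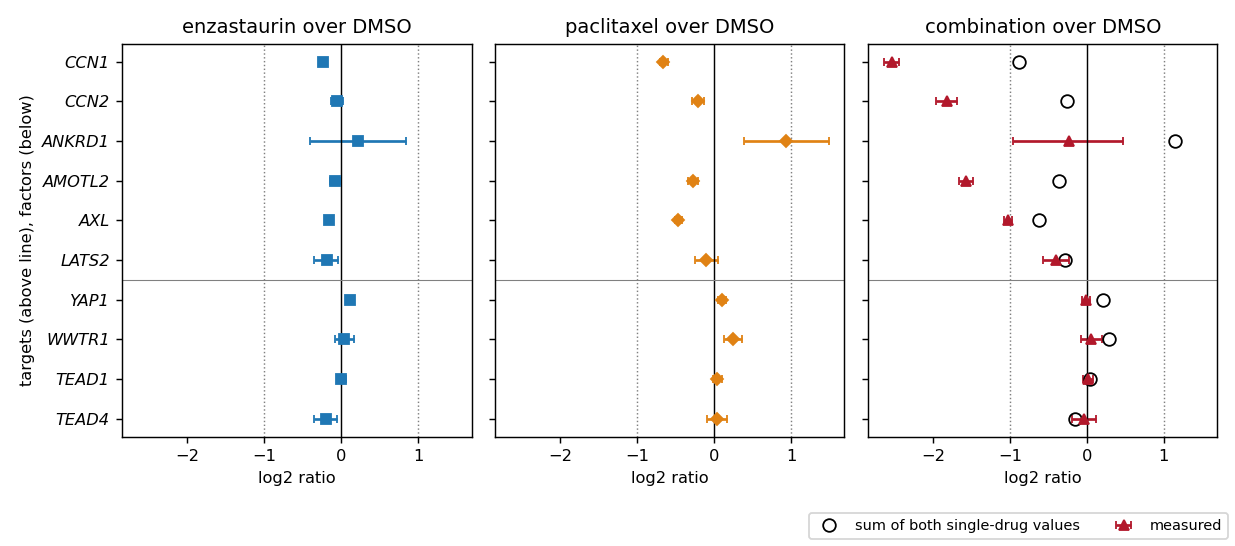
Log2 ratio of each gene over DMSO in the enzastaurin, paclitaxel and combination libraries, with 95% intervals for counting error; dotted lines mark 2-fold and open circles in the right panel mark the sum of both single-drug values. CCN1, CCN2, ANKRD1 and AMOTL2 lie left of their open circles by 1.22 to 1.65, while TEAD1 and TEAD4 lie near theirs.

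YAP1, which encodes YAP, lies at chr11:102110461-102233423 and had 5732, 6058, 6775 and 4521 counts from DMSO to the combination, or 254, 274, 273 and 251 CPM. The single-drug libraries were slightly higher than DMSO, at 0.11 (0.06 to 0.16) and 0.10 (0.05 to 0.15) on the log2 scale, and DMSO and the combination overlap. The deposited FPKM of YAP1 was 73.8 in DMSO and in enzastaurin, 76.7 in paclitaxel and 67.0 in the combination, so the higher enzastaurin level is not seen per transcript length.

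WWTR1, which encodes TAZ, gave different orders in counts and in FPKM. It had 1025, 1033, 1337 and 849 counts from DMSO to the combination, or 45.4, 46.8, 53.8 and 47.1 CPM, with paclitaxel highest. Its FPKM values were 11.62, 10.65, 14.57 and 15.14, with the combination highest. The gene lies at chr3:149517235-149736714. In combination over DMSO the WWTR1 log2 ratio was 0.05 (-0.08 to 0.19) from counts and 0.38 from FPKM.

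FPKM also divides by the mean transcript length that the authors' software assigned to the gene in each library, and that length can be read back from a gene's count and FPKM. For WWTR1 this implied mean length was 3907 bases in DMSO, 4417 in enzastaurin, 3715 in paclitaxel and 3075 in the combination. The protein-coding WWTR1 transcripts of GENCODE 29 number 8 and span 503 to 5030 bases. Shares were taken over the 9270 genes that had 100 counts or more and an FPKM of 2 in every library. Of these, 1.75% differed in implied length between combination and DMSO by as much as WWTR1. The share was 0.464% for combination over enzastaurin, 2.91% for combination over paclitaxel, 5.74% for enzastaurin over DMSO and 21.5% for paclitaxel over DMSO. WWTR1 had the largest difference of the members, so these shares describe it and are not a test. Among the other genes here the implied length differed by at most 0.12 on the log2 scale in any comparison, the largest being YAP1 in enzastaurin over DMSO. Counts per transcript are not analysed here, and whether the estimate would repeat in a second library cannot be told from 1 library.

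**Figure D3:**
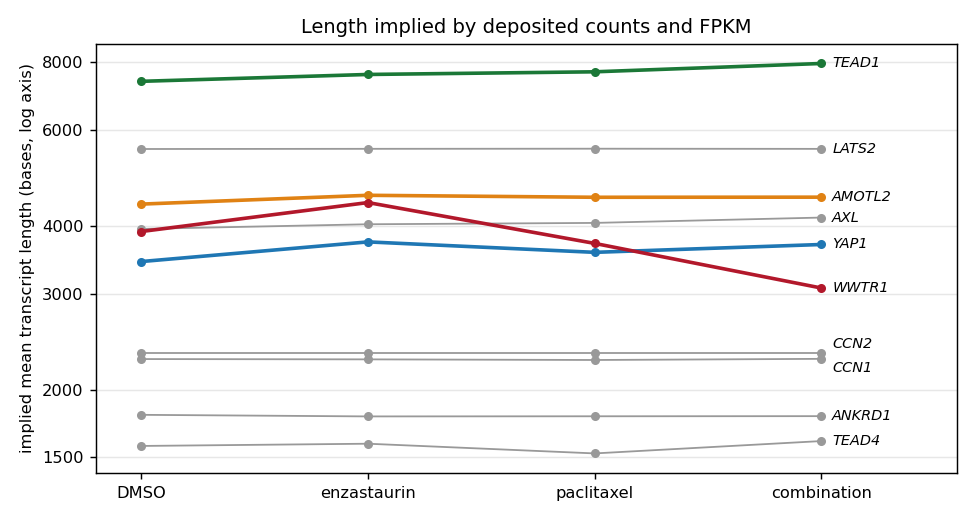
Mean transcript length in bases implied by the deposited counts and FPKM of each gene, on a log axis, by library; lines only join the values of a gene. WWTR1 lies between 3075 bases in the combination and 4417 bases in enzastaurin, while CCN1, CCN2, ANKRD1 and LATS2 are nearly level.

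TEAD1 and TEAD4 encode the DNA-binding partners. Between libraries TEAD1 hardly differed, while TEAD4 was somewhat lower in enzastaurin than in DMSO. TEAD1 had 4110, 4014, 4657 and 3309 counts, which is 182, 182, 187 and 184 CPM, and all 4 intervals overlap. TEAD4 had 871, 739, 985 and 677 counts, or 38.6, 33.5, 39.6 and 37.6 CPM, with enzastaurin lowest. Enzastaurin stood at -0.20 (-0.35 to -0.06) and the combination at -0.04 (-0.19 to 0.11) against DMSO on the log2 scale. TEAD1 lies at chr11:12674591-12944483 and TEAD4 at chr12:2959330-3040673.

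Per length, CCN1 led in DMSO with an FPKM of 143.5 (140.2 to 146.8), followed by AXL at 114.1 and YAP1 at 73.8. CCN2 at 47.9 (46.0 to 49.8) and AMOTL2 at 45.2 (43.9 to 46.6) came next, with overlapping intervals. TEAD1 at 24.7 (23.9 to 25.4) and TEAD4 at 24.5 (22.9 to 26.2) also overlapped, followed by WWTR1 at 11.6, LATS2 at 6.01 and ANKRD1 at 1.06. In the combination YAP1 led at 67.0, then AXL at 52.6 and CCN1 at 24.3 (22.8 to 25.9). TEAD4 at 23.1 and TEAD1 at 22.8 overlapped with CCN1 there, and CCN2, at 13.4, stood below WWTR1 at 15.1, with overlapping intervals.

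The promoters show how the members differ in the core site that TEAD proteins recognise, GGAATG, which reads CATTCC on the opposite strand. RefSeq windows of the 250 bases before a transcription start (GRCh38.p14) matched 7 of the 10 genes; CCN1, TEAD1 and TEAD4 were not matched. Capitals mark GGAATG in the 3 stretches printed, each the part of its window that lies outside every UTR annotated in GENCODE 29. CCN2 is shown as the window with most copies, ANKRD1 as the other with more than 1, and LATS2 as a target whose window held none.
CCN2, chr6:131951374-131951622, minus strand: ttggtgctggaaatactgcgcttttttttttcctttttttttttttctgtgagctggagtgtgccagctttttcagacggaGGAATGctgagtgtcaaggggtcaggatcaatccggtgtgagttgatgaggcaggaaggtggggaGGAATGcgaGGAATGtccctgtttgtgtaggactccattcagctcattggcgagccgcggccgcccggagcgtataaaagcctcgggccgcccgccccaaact
ANKRD1, chr10:90921277-90921337, minus strand: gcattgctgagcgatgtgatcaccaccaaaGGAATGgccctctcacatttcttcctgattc
LATS2, chr13:21061587-21061836, minus strand: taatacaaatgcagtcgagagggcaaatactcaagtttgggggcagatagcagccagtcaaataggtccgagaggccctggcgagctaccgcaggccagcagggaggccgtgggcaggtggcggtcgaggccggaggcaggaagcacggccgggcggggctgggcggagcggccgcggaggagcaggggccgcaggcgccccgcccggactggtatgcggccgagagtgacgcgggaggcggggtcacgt

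CCN2 held 3 copies of GGAATG, starting 169, 104 and 95 bases before the start site. ANKRD1 held 2, at 220 and 128 bases, but GENCODE 29 places 189 of the 250 bases of that window, with the copy at 128 bases, inside a UTR of the annotated transcript, and only the copy at 220 bases lies before it. AMOTL2 held 1 on the opposite strand in the window of 1 of its 2 starts, where 147 bases, the copy among them, are likewise UTR. AXL held 1 on the opposite strand in 1 of its 2 windows, and YAP1 held 1 at 162 bases. All 250 bases of the YAP1 window lie within an exon annotated in GENCODE 29, though none of them in a UTR. LATS2 and both WWTR1 windows held none. Of 35116 windows of the same length, searched on both strands, 11.9% held at least 1 copy, 0.940% at least 2 and 0.0826% at least 3. The sequence TGANTCA, where N is any base, was also searched. It was in 6.57% of all windows and, among the members, only in that of ANKRD1, at 195 to 189 bases. The CArG box, the element bound by serum response factor, was in 1.16% of all windows and in none of the members' windows. With only 10 member windows and none for CCN1, an absence would be likely at that share, so nothing follows from it. A match shows letters in this window only and is not a measured binding site.

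Other targets of YAP and TEAD were taken as a list of 20 genes, 19 of which reached 20 counts. In combination over paclitaxel 3 of the 19 passed the size rule downward, against 4.17% of all genes, and none upward. In that comparison 16 of the 19 were negative, against 52.7% of all genes, and the median log2 ratio was -0.42, against -0.02. This list too was chosen with earlier results of these data known. THBS1, the gene of the matricellular protein thrombospondin-1, had 21775, 19344, 20302 and 4276 counts from DMSO to the combination. The combination was the low library for THBS1, at -1.78 (-1.83 to -1.74) over paclitaxel. EDN1, which encodes the vasoconstrictor peptide endothelin-1, had 423, 499, 427 and 111 counts and was at -1.48 (-1.79 to -1.18). The kinase gene NUAK2, with 45, 55, 56 and 12 counts, was at -1.76 (-2.79 to -0.84).

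CCDC80, a secreted matrix protein gene, was stepwise lower, with 2118, 1891, 1555 and 610 counts. Against DMSO it was at -0.58 (-0.68 to -0.49) with paclitaxel and at -1.47 (-1.60 to -1.34) with the combination. In single-drug comparisons with DMSO none of the 19 passed the rule. Over all genes 0.887% did with enzastaurin and 1.24% with paclitaxel, so the list is near the share of all genes. The target BIRC5, which encodes the survival and mitotic protein survivin, was the highest of the list in combination over paclitaxel at 0.59 (0.52 to 0.66).

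Of the other CCN family genes, which encode related matricellular proteins, 3 of 4 reached 20 counts. CCN4 had 1012, 851, 788 and 291 counts and was at -0.97 (-1.17 to -0.78) in combination over paclitaxel, and at -1.47 (-1.67 to -1.28) over DMSO, past the rule. CCN5, with 67, 47, 62 and 18 counts, passed in combination over paclitaxel at -1.32 (-2.17 to -0.54). Of the 3 genes, 1 was past the rule downward over paclitaxel and 2 (CCN4 and CCN5) over DMSO, against 4.17% and 5.53% of all genes. CCN3 lay on the other side, at 8.95 CPM in DMSO and 17.2 CPM in the combination, and CCN6 had at most 1 count. Of the genes related to AXL, the TAM receptor gene TYRO3 was at 0.04 (-0.09 to 0.17) in combination over paclitaxel, and the TAM ligand genes GAS6, at -0.10 (-0.33 to 0.14), and PROS1, at -0.13 (-0.23 to -0.03), differed little in that comparison.

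Of 19 Hippo kinases and adaptors, none passed the rule in combination over paclitaxel, where 4.75% of all genes did in either direction. Their median log2 ratio was -0.17, against -0.02 over all genes. TAOK3, a kinase that can activate the MST kinases, had 434, 430, 437 and 166 counts and passed downward in combination over DMSO at -1.06 (-1.33 to -0.80). That is 1 of the 19, against 5.53% of all genes lower there, so the list is near the share of all genes. TAOK3 was at -0.93 (-1.20 to -0.67) over paclitaxel. STK4, the MST1 kinase gene, had 1685, 1791, 1946 and 735 counts and was at -0.94 (-1.07 to -0.82) over paclitaxel, under the 2-fold limit. LATS1, the paralogue of LATS2, lay on the opposite side at 0.29 (0.18 to 0.40). BIRC5, CCN3, CCN6, TYRO3, STK4, LATS1, YWHAZ and YWHAH were chosen for naming after their values were seen.

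Among the remaining TEAD proteins and VGLL cofactors, which compete with YAP for TEAD, 4 of 6 had at least 20 counts. None of the 4 passed the rule in any comparison, where 0.887% to 6.54% of all genes did in either direction. Their median was -0.18 in combination over paclitaxel. VGLL3 had 2181, 2240, 2139 and 1119 counts and was at -0.47 (-0.58 to -0.37), and TEAD2 was at -0.23 (-0.42 to -0.04). Of 7 measured angiomotins and other YAP binders, 1 passed downward in combination over paclitaxel, against 4.17% of all genes, and the median was -0.40. That gene was YWHAB, which encodes one of the adaptor proteins that hold phosphorylated YAP in the cytoplasm, with 8962, 8737, 8471 and 3015 counts and a log2 ratio of -1.03 (-1.09 to -0.97). Its relatives in the list, YWHAZ at -0.04 (-0.07 to -0.01) and YWHAH at 0.20 (0.14 to 0.27), were not low.

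SRF and its MRTF cofactors, which answer to actin dynamics, were listed with their targets, and 19 of these 21 genes reached 20 counts. The list holds none of the YAP and TEAD targets named above, so it does not cover genes that may answer to both pathways. In combination over paclitaxel none of the 19 passed the rule, where 4.75% of all genes did in either direction. The median log2 ratio was 0.00, against -0.02 over all genes. Over DMSO the median was -0.13 in the combination, against -0.03 over all genes, -0.08 in enzastaurin and -0.10 in paclitaxel, against 0.00 for both. In each single-drug comparison 17 of the 19 were negative, against 50.6% of all genes with enzastaurin and 50.3% with paclitaxel. ACTA2, the smooth muscle actin gene, was past the rule in combination over DMSO, with 154 counts in DMSO, 57 in the combination and -1.11 (-1.57 to -0.66). That is 1 of the 19, against 5.53% of all genes lower there, so the list is near the share of all genes.

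Of 9 genes for YAP stability, modification or transport, SRC, a kinase gene, passed downward in combination over paclitaxel, at -1.02 (-1.20 to -0.85), where 4.17% of all genes did, and the list median was -0.01.

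**Figure D4:**
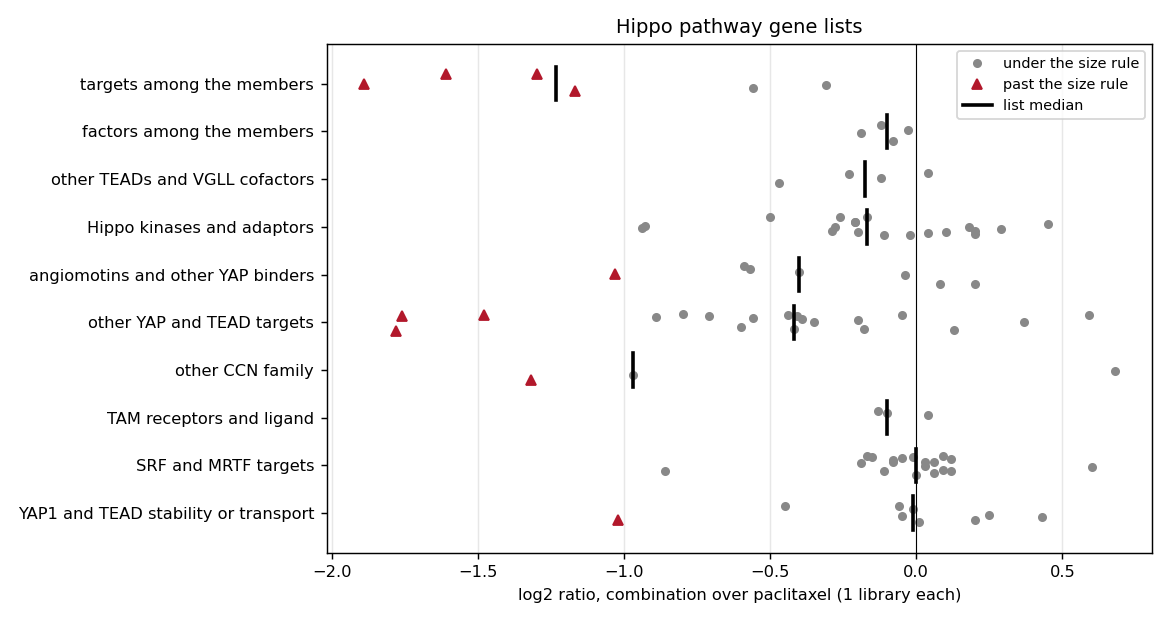
Log2 ratio in combination over paclitaxel for the 6 targets, the 4 factors and 8 lists of related genes; each point is a gene with at least 20 counts in a library, triangles passed the size rule and black bars are list medians. The median lies at -1.24 for the targets, -0.42 for other YAP and TEAD targets and 0.00 for SRF, the MRTF genes and their targets. No gene is shared between lists, so a gene that may answer to both pathways is shown in a single list.

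Genes most like CCN1 were sought among the 7440 genes that reached 500 counts in some library, by the root mean square difference of the 3 log2 ratios over DMSO. The nearest 5 were CRISPLD2 (difference 0.118), JUND (0.121), FLOT2 (0.205), EHD2 (0.211) and ZBED6 (0.223). CRISPLD2, which encodes a secreted protein, had 501, 449, 315 and 73 counts from DMSO to the combination. JUND, an AP-1 subunit gene, had 1049, 864, 725 and 166. For YAP1 the nearest were ADNP, ENTPD7, CTDSP2, TTPAL and ZFX, all within 0.015, a closeness that a flat profile over 4 libraries gives to many genes.

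An additive model of both drugs, fitted with edgeR's quasi-likelihood test over all 4 libraries, was the only test the design allowed. It has 2 libraries at each level of each drug and 1 residual degree of freedom, and any interaction of the drugs enters its spread. Most of the weight in its error estimate comes from other genes (18.2 prior degrees of freedom), not from repeat cultures. For paclitaxel, averaged over both enzastaurin levels, CCN1 was called at a log2 change of -1.46 (SE 0.24, Benjamini-Hochberg adjusted p = 0.0129 over 12129 genes). That average joins unlike values, as the CCN1 log2 ratio was -0.66 without enzastaurin and -2.31 with it. CCN1 was 1 of 10 members called, against 0.173% of all genes (0.0989% lower, 0.0742% higher). The members were chosen with earlier results of these data known, so this share is descriptive only. AXL (adjusted p = 0.0666), AMOTL2 (0.0828) and CCN2 (0.0861) did not pass. For enzastaurin edgeR called none of the 10 members and 0.00824% of genes, that 1 gene being higher. There 4 members (CCN1, CCN2, AMOTL2 and AXL) had an unadjusted p under 0.05, as did 5.69% of all genes, and DESeq2 and limma called none. The CCN1 call for paclitaxel was lost with library size alone (adjusted p = 0.626), with DESeq2's Wald test (0.9996) and with limma on FPKM (0.549), and kept with no filter on low counts (9.081e-08). The log2 change was -1.46 to -1.48 in all of these fits.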

How the data were processed

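Per the labels' protocols, cDNA was primed with random primers and read on a NovaSeq6000. The authors deposited expected counts per gene, not scaled for depth (10.7% to 11.4% of a library's values are not whole), and FPKM values scaled for length and library size. RSEM and hg38 were used, per the submitters' processing notes. Not given in the sources used here are the aligner, the versions, the annotation and the strand setting. Antisense genes overlap 6 of the 10 members in GENCODE 29 and none of them is in the table, so reads of the opposite strand may be included.

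Columns were matched to conditions by treatment name, with Ctrl taken as DMSO, and 0 columns remained unmatched. Counts were rounded. TMM factors (edgeR 4.0.16) were 1.000, 1.005, 1.006 and 0.988 for DMSO, enzastaurin, paclitaxel and the combination. Ratios have exact Clopper-Pearson conditional intervals, levels exact Poisson intervals, and departures a delta-method interval, all for counting error only, and without molecular identifiers reads need not be separate molecules. FPKM intervals scale that of the count. Coordinates, transcript lengths and GC content came from GENCODE 29, which matched 99.8% of the 11843 genes reaching 20 counts. A smooth trend in length and GC content was fitted with mgcv 1.9.3.

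The additive model used filterByExpr, glmQLFit and glmQLFTest with Benjamini-Hochberg adjustment and a threshold of 0.05. DESeq2 1.42.0 and limma 3.58.1 (log2 of FPKM plus 1) were alternatives, beside other scalings, count minimums and fold limits. Scripts were tested on simulated counts and ran in R 4.3.3 and Python 3.11.15.

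The members and the gene lists were chosen with earlier results of these data known, and 1 of the lists is not reported here. Named genes were all members, in each list up to 4 genes past the size rule in any comparison by size in combination over paclitaxel (otherwise the 2 largest), and the 5 nearest to CCN1 and to YAP1.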

Additional observations from a re-analysis of the deposited data

Results flagged for a closer look

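YAP1 differed in opposite directions with each drug, depending on whether the other drug was present, with every counting interval excluding 0. Its log2 ratio was 0.11 in enzastaurin over DMSO and -0.12 in combination over paclitaxel. For paclitaxel it was 0.10 over DMSO and -0.13 in combination over enzastaurin. The difference was not tested, since each condition has 1 library. ADNP, ENTPD7, CTDSP2, TTPAL and ZFX had nearly the same ratios over DMSO (root mean square difference within 0.015), so these values are not particular to YAP1. From the deposited FPKM with a pseudocount of 0.1, the enzastaurin over DMSO value was 0.00.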

How the results depend on the processing

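No paired analysis was possible because there is 1 library per condition, and no library could be left out. The counts of members past the size rule stayed within 1.5 times under every alternative, apart from 2 (CCN1 and ANKRD1) that passed in paclitaxel over DMSO at a fold limit of 1.5, against 0 at 2-fold. ANKRD1 dropped out of the 4 members in combination over paclitaxel at a minimum of 100 counts, and at -0.69 with FPKM and a pseudocount of 1. Of the member ratios and departures under other scalings, FPKM or trend removal, 240 stayed within their counting interval, 30 moved outside it and 0 of those past the rule changed sign. In the additive model the members called for paclitaxel numbered 1, and 0 with library size alone, 0 with DESeq2, 0 with limma and 4 with no filter. For enzastaurin they numbered 0, and 3 with no filter. The cause was not tested.

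Counts over all genes moved more. With no count minimum, 220 and 262 genes passed in enzastaurin and paclitaxel over DMSO, against 105 and 147. With a minimum of 100 counts, 12, 26, 307, 442 and 481 passed in enzastaurin and paclitaxel over DMSO and the combination over paclitaxel, enzastaurin and DMSO, against 105, 147, 562, 754 and 775. In that order a fold limit of 1.5 gave 274, 320, 1545, 1985 and 1980, and FPKM with a pseudocount of 1 gave 15, 25, 184, 274 and 308. The additive model called 21 genes for paclitaxel, and 0, 8, 3 and 343 with library size alone, DESeq2, limma and no filter. For enzastaurin it called 1, and 0, 0, 0 and 58.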

Other observations

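Across all genes with a matched promoter window that reached 20 counts, ratios in combination over paclitaxel were listed by the number of GGAATG copies. Among 8264 genes with no copy the median log2 ratio was -0.02 and 303 (3.67%) passed the size rule downward. Among 1179 genes with 1 copy the median was -0.04 and 58 (4.92%) passed, and among 90 genes with 2 or more it was -0.12 and 7 (7.78%) passed, 2 of the 7 being CCN2 and ANKRD1, which were chosen with results of these data known. No difference between these shares was tested, and the base composition of the windows was not taken into account. In paclitaxel over DMSO the shares lower were 0.242%, 0.254% and 0% in the same order.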
